A study of Homo sapiens with 5 samples.

Results

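The genes described here are 10 chromatin proteins of the high mobility group (HMG) and of the histones: the HMG-box genes HMGB1, HMGB2 and HMGB3, the nucleosome-binding genes HMGN1 and HMGN2, the AT-hook gene HMGA1, the histone variants H2AFZ, H2AFV and H2AFX, and the histone H4 gene HIST1H4C. They were taken by name from all 5 deposited tables, and are 10 of 15028 genes kept, out of 21200 listed in any table. The cells were SW480, an established human colorectal cancer line that carried GFP from a lentiviral vector and was injected into zebrafish embryos, where it formed tumors. Tumors of many larvae were pooled, dissociated with an inhibitor of anoikis, and living cells were sorted 1 per well, at 1 day post injection (1 dpi, libraries 6, 7 and 8) and at 4 dpi (libraries 10 and 11). There was no untreated group, and both time points carried the same cells and vector. A library is 1 plate of 384 wells. The sources do not say whether plates sorted at the same time had tumor pools of their own, so p values measure the spread between plates, which may be technical.

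HMG proteins are small and abundant chromatin proteins: HMGB proteins bend DNA with their HMG boxes, HMGN proteins bind the nucleosome core and loosen compacted chromatin, and HMGA1 binds the minor groove of AT-rich DNA. H2AFZ and H2AFV encode the 2 forms of H2A.Z, a variant exchanged into nucleosomes near promoters, H2AFX encodes the variant that is phosphorylated around DNA breaks, and HIST1H4C encodes core histone H4. Core histone genes of this kind are transcribed mostly in S phase and their mRNA mostly lacks a poly(A) tail, whereas the HMG and variant genes are polyadenylated, and this protocol primes from poly(A). TOP2A, the DNA topoisomerase that untangles chromosomes, is made mainly in S, G2 and mitosis. Its transcripts were used to divide the cells: TOP2A-zero cells held no UMI of TOP2A and TOP2A cells held at least 1. A UMI (unique molecular identifier) stands for 1 captured RNA molecule.

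Of 1920 wells, 826 passed the filter (over 2000 genes and under 25% mitochondrial UMIs): 228, 142 and 163 at 1 dpi (in the order of library number) and 132 and 161 at 4 dpi. They held between 3789632 and 7503665 UMIs per library, with a median of 18823 to 36197 per cell. Of 7 epithelial markers, EPCAM and KRT8 were found in 100% of the cells, KRT18 in 98.7% and KRT19 in 95.8%. CDH1 was found in 50%, VIL1 in 40.7% and CDX2 in 31.1%. In the tests described below, 1 of the 7 was higher and 3 were lower at 4 dpi. In TOP2A cells 0 were higher and 4 were lower. Of the leukocyte markers PTPRC and TYROBP, the endothelial markers CDH5 and KDR, the fibroblast markers COL1A2, DCN and PDGFRB and the erythroid markers HBA2 and HBB, 0 were among the genes kept. The kept markers of these types summed to at most 16.7 CPM in any library, where CPM is the UMIs of a gene per 1000000 UMIs of all human genes. The 4 kept of 6 leukocyte markers gave 4.75 to 9.67 CPM, and the 16.7 was COL1A1 in library 10, which also rose with time. Libraries 6, 7 and 10 shared one code in their deposited names and libraries 8 and 11 shared another. The sample labels do not name this code, which is read here as the flow cell. Under that reading time and flow cell were not tied to each other.

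The stretch of 250 bases before the transcription start is shown for 4 of the genes, as examples of both directions in the comparisons that follow: H2AFX, H2AFV and HMGN2 were higher both at 4 dpi and in TOP2A cells, while HMGA1 was lower at 4 dpi and was not called between the classes. The sequences are from RefSeq on GRCh38.p14 and run 5′ to 3′ toward the start. Capitals mark the CCAAT box (CCAAT, or ATTGG on the other strand) and the cell cycle homology region (TTTGAA or TTCGAA, or TTCAAA on the other strand), elements known from promoters of cell cycle genes. The 4 windows are chr11:119095466-119095715 (minus strand), chr7:44848088-44848337 (minus strand), chr1:26472190-26472439 (plus strand) and chr6:34236623-34236872 (plus strand, the first of the starts listed for HMGA1), in that order.
H2AFX: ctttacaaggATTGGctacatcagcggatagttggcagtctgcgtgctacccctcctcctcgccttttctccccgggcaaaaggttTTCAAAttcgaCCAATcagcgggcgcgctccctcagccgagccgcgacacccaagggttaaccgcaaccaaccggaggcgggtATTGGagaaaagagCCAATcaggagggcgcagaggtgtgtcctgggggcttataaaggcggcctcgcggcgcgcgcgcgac
H2AFV: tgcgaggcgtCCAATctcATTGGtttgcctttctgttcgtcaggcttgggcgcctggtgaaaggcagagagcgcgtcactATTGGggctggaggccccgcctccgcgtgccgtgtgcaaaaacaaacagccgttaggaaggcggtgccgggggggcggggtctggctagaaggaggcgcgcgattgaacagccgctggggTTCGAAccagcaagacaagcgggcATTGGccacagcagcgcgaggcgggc
HMGN2: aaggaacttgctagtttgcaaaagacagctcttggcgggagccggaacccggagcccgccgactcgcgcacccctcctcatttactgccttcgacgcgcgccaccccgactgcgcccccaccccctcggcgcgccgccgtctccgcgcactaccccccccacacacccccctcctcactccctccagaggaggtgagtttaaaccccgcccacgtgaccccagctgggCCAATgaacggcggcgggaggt
HMGA1: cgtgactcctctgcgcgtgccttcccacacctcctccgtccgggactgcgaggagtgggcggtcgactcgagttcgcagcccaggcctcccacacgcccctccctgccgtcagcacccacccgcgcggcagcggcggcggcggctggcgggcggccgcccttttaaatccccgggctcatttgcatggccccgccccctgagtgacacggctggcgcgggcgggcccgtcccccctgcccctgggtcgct
The H2AFX and H2AFV windows each held 4 CCAAT boxes, the HMGN2 window 1 and this HMGA1 window 0. One cell cycle homology region was found in each of the H2AFX and H2AFV windows, and also at 1 start each of HMGB1 and HMGB3. Over the same length in 35116 promoters of the table, 32.0% held at least 1 CCAAT box, 9.53% at least 2 and 2.93% at least 3, and 14.3% held a cell cycle homology region. Of the 10 genes, 8 matched the table, with 12 starts. H2AFZ had 3 CCAAT boxes and HMGN1 had 2, while HMGB1 had 3, 1 and 0 at its separate starts, HMGB3 had 3 and 0, and the other HMGA1 start had 1. HMGB2 and HIST1H4C were not matched. A match of letters is a description and not a binding site.

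The first comparison asks which of these genes differed between the tumors soon after injection and those that persisted to 4 dpi. Over all passing cells, 8 of the 10 were higher and 2 were lower at 4 dpi, with every library of one time point apart from every library of the other. All 10 passed the test, against 27.6% of the 12609 genes tested. The members were chosen with earlier results of these data known. This count, and the later counts set against all genes, are therefore no test of the family as a whole. Without overlap were 54.2% of all genes, so that separation alone was common. The median log2 change over all genes was 0.0019. Counts were summed over the cells of each library, and the test was edgeR's quasi-likelihood test with Benjamini-Hochberg adjustment over all genes tested (threshold 0.05), also for every adjusted p that follows. In such sums, more cells with a transcript and more transcripts per cell cannot be told apart.

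Among the HMG-box genes, HMGB2 (chr4:173331376-173334432, minus strand), a DNA-bending protein of dividing cells, changed the most of the 10. Its level was 94.9, 99.1 and 69.2 CPM in libraries 6, 7 and 8, and 231.5 and 187.9 CPM in libraries 10 and 11. The lower of the 4 dpi libraries was thus far above the highest 1 dpi library. The difference was 1.23 ± 0.14 on the log2 scale (SE, n = 3 and 2 libraries; adjusted p = 1.6e-05). HMGB3 (chrX:150980509-150990771), a family member known from stem and progenitor cells, had 62.2, 69.2 and 59.0 CPM at 1 dpi and 109.1 and 120.3 CPM at 4 dpi, which is a log2 change of 0.83 ± 0.11 (adjusted p = 8.51e-05). HMGB1 (chr13:30456704-30617597, minus strand), the family member that can also act outside the cell as an alarm signal, had 863.6, 768.5 and 791.2 CPM at 1 dpi against 1128.4 and 1118.3 CPM at 4 dpi. Its rise was smaller on the log2 scale, 0.45 ± 0.08 (adjusted p = 0.00118), and it missed the threshold when cells were limited to under 15% mitochondrial UMIs (0.25, adjusted p = 0.0748).

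The nucleosome-binding genes also rose, HMGN2 by more than HMGN1. HMGN2 (chr1:26472440-26476642) had 139.1, 144.9 and 143.5 CPM at 1 dpi and 254.5 and 264.9 CPM at 4 dpi, a spread of a few percent within each time point. Its log2 change was 0.84 ± 0.09 (adjusted p = 1.21e-05). HMGN1 (chr21:39342315-39349647, minus strand) had 535.7, 510.5 and 490.2 CPM at 1 dpi and 669.7 and 627.2 CPM at 4 dpi, a log2 change of 0.31 ± 0.09 (adjusted p = 0.0139). That call was lost without library 8 (0.28, adjusted p = 0.0536), without library 10 (0.26, adjusted p = 0.104) and under 15% mitochondrial UMIs (0.22, adjusted p = 0.113). HMGA1 (chr6:34236873-34246231) went the other way: it had 660.3, 778.5 and 685.6 CPM at 1 dpi and 495.3 and 579.7 CPM at 4 dpi. The log2 change was -0.42 ± 0.10 (adjusted p = 0.00586), and it missed the threshold without library 10 (-0.32, adjusted p = 0.0610).

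The 3 H2A variants rose together. H2AFV (chr7:44826791-44848087, minus strand) had 165.3, 155.5 and 157.5 CPM at 1 dpi and 247.4 and 261.2 CPM at 4 dpi, a log2 change of 0.65 ± 0.09 (adjusted p = 0.00011). H2AFZ (chr4:99948086-99950355, minus strand) had 430.2, 447.5 and 331.9 CPM at 1 dpi and 594.5 and 553.9 CPM at 4 dpi, a log2 change of 0.48 ± 0.11 (adjusted p = 0.00556). The 2 genes of H2A.Z therefore moved in the same direction. H2AFX (chr11:119093874-119095465, minus strand) was counted least, with 32.8, 30.5 and 32.4 CPM at 1 dpi and 49.98 and 54.6 CPM at 4 dpi, from 565 and 405 UMIs in all. Its log2 change was 0.69 ± 0.13 (adjusted p = 0.00103). With each cell thinned to 5000 UMIs the calls of H2AFV and H2AFX were lost (0.34 and 0.67, adjusted p = 0.108 and 0.0902), and under 15% mitochondrial UMIs that of H2AFZ was lost (0.34, adjusted p = 0.0540).

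HIST1H4C (chr6:26103933-26104337), the core histone gene, had 509.5, 649.5 and 531.2 CPM at 1 dpi and 434.2 and 491.6 CPM at 4 dpi. The log2 change of -0.31 ± 0.11 was at the edge of the threshold (adjusted p = 0.0468) and was past it in 6 of 14 alternatives. It was lost without library 7, for example (-0.18, adjusted p = 0.241), and with thinned cells it was -0.10 (adjusted p = 0.678).

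**Figure D1:**
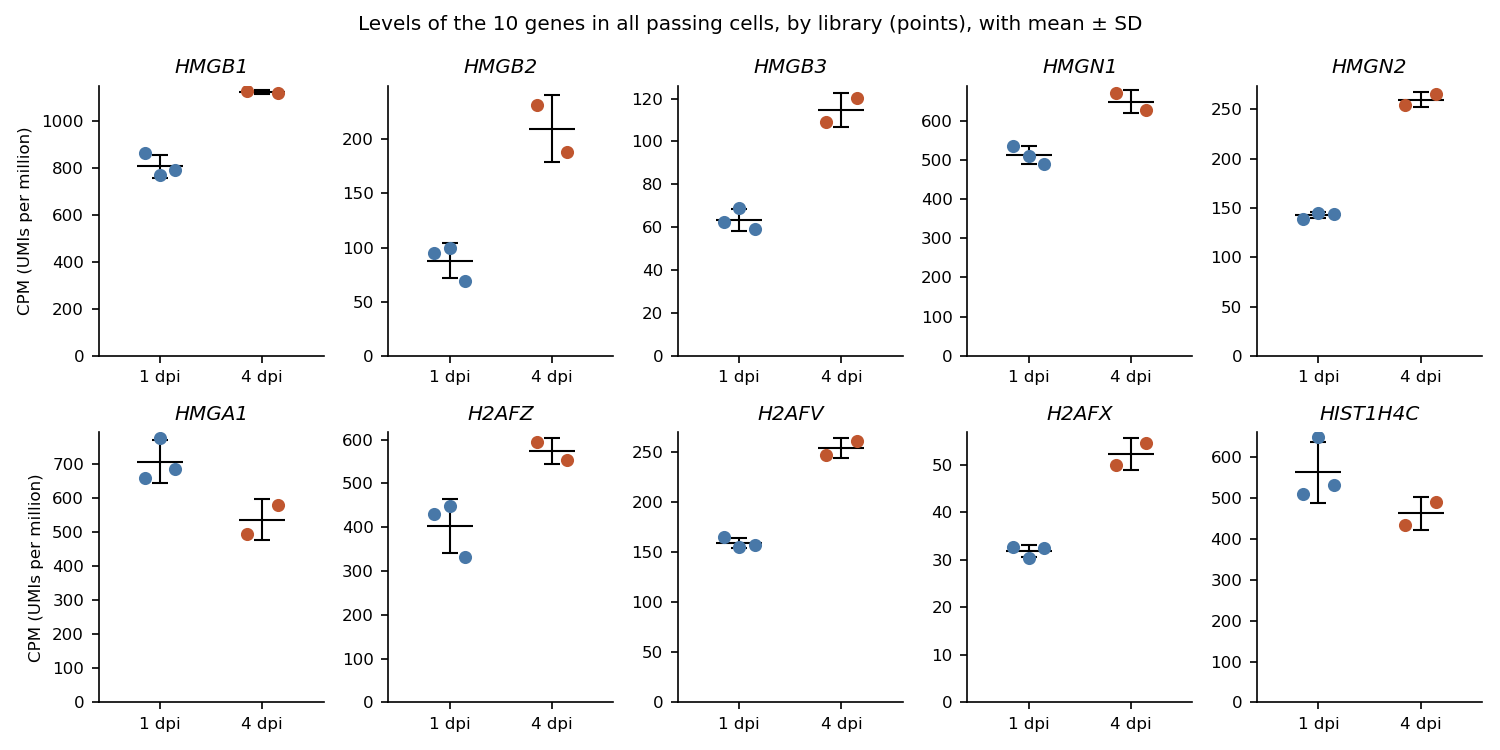
Level of each of the 10 genes in CPM (y axis, from 0) in the 3 libraries of 1 dpi (blue) and the 2 of 4 dpi (orange), with the mean and SD as a black mark and bar. The time points do not overlap in any panel; HMGA1 and HIST1H4C are lower at 4 dpi and the other 8 genes are higher.

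Other genes of these families, taken from lists written with earlier results of these data known, did not move as a block. Of 11 tested HMG-box, HMGN and HMGA genes beside the members, 3 were higher and 2 lower at 4 dpi, and their median log2 change was 0.03. HMGN5, an X-linked HMGN gene, rose from 39.2 ± 3.74 to 59.7 ± 7.98 CPM (SD, n = 3 and 2). HMG20B rose from 8.70 ± 0.27 to 15.8 ± 1.95 CPM. HMGA2, the other AT-hook gene, fell from 10.4 ± 1.80 to 4.22 ± 2.24 CPM, in the direction of HMGA1, and HMGXB4 fell from 79.9 ± 10.1 to 54.1 ± 5.24 CPM. Of 7 replication-independent histone genes, 3 rose and 1 fell: H2AFJ rose from 45.1 ± 3.66 to 104.1 ± 24.8 CPM, CENPA, the histone of the centromere, from 14.0 ± 4.69 to 28.7 ± 7.31 CPM, and H3F3B, which encodes histone H3.3, fell from 1749 ± 117 to 1311 ± 78.1 CPM. Another 21 histone genes beside HIST1H4C were grouped as replication-dependent by their symbols alone (HIST1H, HIST2H, HIST3H and HIST4H). Whether their transcripts depend on replication was not tested. Only 8 of the 21 passed the filter on low counts, which a gene can pass through the group where it is high. Of these 5 were higher and 0 lower. The largest changes among those called were HIST3H2A (1.48 ± 1.02 to 6.21 ± 0.92 CPM) and HIST2H2BE (5.44 ± 1.09 to 19.5 ± 0.79 CPM).

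Among genes that handle the members, ANP32E, the chaperone that removes H2A.Z, rose from 46.5 ± 4.56 to 70.7 ± 0.02 CPM, and INO80, a remodeler of H2A.Z nucleosomes, fell from 79.4 ± 8.28 to 57.0 ± 6.71 CPM. These were 2 of 12 tested H2A.Z exchange genes, and the other 10 did not pass the test. Of 23 histone chaperones 3 rose and 0 fell, with OIP5, which helps to load CENPA, and ASF1B, an H3-H4 chaperone, at log2 changes of 1.00 ± 0.22 and 0.79 ± 0.14. Of 6 genes of histone mRNA processing only ZNF473 passed, at -0.78 ± 0.15. Of 10 genes that phosphorylate H2AX or read that mark only RNF168 passed, at -0.48 ± 0.14, while H2AFX itself rose. CXCR4, a partner receptor in HMGB1 signaling, rose from 2.08 ± 0.67 to 8.53 ± 0.63 CPM, the 1 call among 3 tested genes of a list of HMGB1 receptors and partners.

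Proliferation markers moved with these changes. All 12 G2 and mitosis genes were higher at 4 dpi, with a median log2 change of 1.11, and their summed level was 469 to 607 CPM at 1 dpi and 1204 to 1308 CPM at 4 dpi. Of 9 S-phase genes 2 were higher and 1 lower, with summed levels of 691 to 802 CPM and 744 to 827 CPM. TOP2A UMIs were found in 31.1%, 35.9% and 25.8% of the cells of libraries 6, 7 and 8 and in 42.4% and 43.5% of those of libraries 10 and 11. The mean share rose from 30.9% ± 5.08 to 43.0% ± 0.75 (SD), which 3 against 2 libraries cannot place under 0.05 (exact two-sided permutation test, p = 0.2, where the smallest possible is 0.1). At 5000 UMIs per cell the shares were 11.2% ± 3.22 and 19.6% ± 1.62, and with under 15% mitochondrial UMIs the difference between the means was 4.02 percentage points in place of 12.0. The median mitochondrial share of the passing cells was 10.4% to 12.4% in the libraries of 1 dpi and 11.6% and 12.9% in those of 4 dpi. The part of the proliferation markers and of the mitochondrial share in the members' changes was not tested beyond the classes and limits given here.

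The cells were therefore compared with time within each TOP2A class. In the 536 TOP2A-zero cells 7 of the 10 genes passed the test, against 16.3% of 11744 genes tested, and in the 290 TOP2A cells 8 passed, against 18.8% of 11057. HMGN2, HMGB3, HMGB2, H2AFZ and H2AFV were higher at 4 dpi in both classes. H2AFX, HMGB1 and HMGN1 passed only in TOP2A cells, and the falls of HMGA1 and HIST1H4C passed only in TOP2A-zero cells. Whether the classes differed was tested by the interaction, given further on, which called none of them.

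HMGN2 and HMGB3 gave nearly the same change in both classes. In TOP2A-zero cells HMGN2 had 108.1, 123.2 and 130.9 CPM at 1 dpi and 216.3 and 219.8 CPM at 4 dpi, and in TOP2A cells 179.3, 171.2 and 168.9 against 288.7 and 304.6 CPM. The log2 changes were 0.79 ± 0.13 (adjusted p = 0.000282) and 0.83 ± 0.12 (adjusted p = 9.06e-05), and in TOP2A-zero cells the call held in 14 of 14 alternatives. For HMGB3 they were 0.73 ± 0.16 (adjusted p = 0.00338) and 0.80 ± 0.14 (adjusted p = 0.000514). In TOP2A cells the HMGB3 call held in 13 of 15 alternatives and was lost, for example, under 15% mitochondrial UMIs (0.51, adjusted p = 0.0522). H2AFZ, the main H2A.Z gene, had estimates close to each other in both classes, at 0.47 ± 0.12 (adjusted p = 0.0136) and 0.41 ± 0.12 (adjusted p = 0.0251). Its calls held in 11 of 14 and 9 of 15 alternatives, and both were lost without library 8, 10 or 11 (adjusted p = 0.0611 to 0.121 in TOP2A-zero cells and 0.0813 to 0.176 in TOP2A cells).

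HMGB2 had 65.6, 70.6 and 51.6 CPM in TOP2A-zero cells at 1 dpi and 113.2 and 84.0 CPM at 4 dpi, so that library 11 lay close to the 1 dpi libraries. Its level in TOP2A cells was 132.8, 133.7 and 105.0 CPM at 1 dpi against 337.5 and 279.3 CPM at 4 dpi, with no library near the other time point. The log2 changes were 0.60 ± 0.17 (adjusted p = 0.0180; 0.0510 with DESeq2 and 0.328 without library 10) and 1.36 ± 0.14 (adjusted p = 1.17e-06). H2AFX had 27.1, 23.8 and 30.3 CPM in TOP2A-zero cells at 1 dpi and 34.2 and 28.2 CPM at 4 dpi. Here the time points overlapped, and the log2 change was 0.14 ± 0.20 (adjusted p = 0.679). In TOP2A cells H2AFX went from 40.1, 38.7 and 36.7 CPM to 64.2 and 77.9 CPM, a log2 change of 0.93 ± 0.17 (adjusted p = 0.000744). H2AFV lay between these patterns, at 0.40 ± 0.12 in TOP2A-zero cells (adjusted p = 0.0332, past the threshold in 4 of 14 alternatives) and 0.78 ± 0.13 in TOP2A cells (adjusted p = 0.000221).

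HMGB1 had log2 changes of 0.32 ± 0.11 in TOP2A-zero cells (adjusted p = 0.0603) and 0.50 ± 0.12 in TOP2A cells (adjusted p = 0.00728), and HMGN1 had 0.28 ± 0.11 (adjusted p = 0.102) and 0.38 ± 0.12 (adjusted p = 0.0277). In TOP2A cells the call of HMGN1 held in 7 of 15 alternatives and was lost without library 7, 8, 10 or 11 (adjusted p = 0.111 to 0.142), and leaving out library 7 or 11 ended that of HMGB1 (adjusted p = 0.0508 and 0.0770). HMGA1 fell in TOP2A-zero cells from 657.9, 768.1 and 729.3 CPM to 477.4 and 570.4 CPM (-0.52 ± 0.12, adjusted p = 0.00644; 0.1001 without library 10), and in TOP2A cells the log2 change was -0.26 ± 0.13 (adjusted p = 0.151). HIST1H4C was 415.5, 446.7 and 436.2 CPM in TOP2A-zero cells at 1 dpi and 262.8 and 405.8 CPM at 4 dpi. Its call (-0.44 ± 0.14, adjusted p = 0.0402) thus rested on library 10, without which the log2 change was -0.18. In TOP2A cells the log2 change of HIST1H4C was -0.32 ± 0.13 (adjusted p = 0.0824), of the same direction but not called. The TOP2A cells were not alike in TOP2A itself at the 2 time points: they held 111 ± 19.3 CPM of TOP2A at 1 dpi and 275 ± 51.7 CPM at 4 dpi, and the part of this in the members' changes was not tested. With each cell thinned to 5000 UMIs only 12 to 33 TOP2A cells per library were left and 1 of the 10 genes, HMGB2, passed (1.16, adjusted p = 0.0449), with 53 of 2852 genes called.

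**Figure D2:**
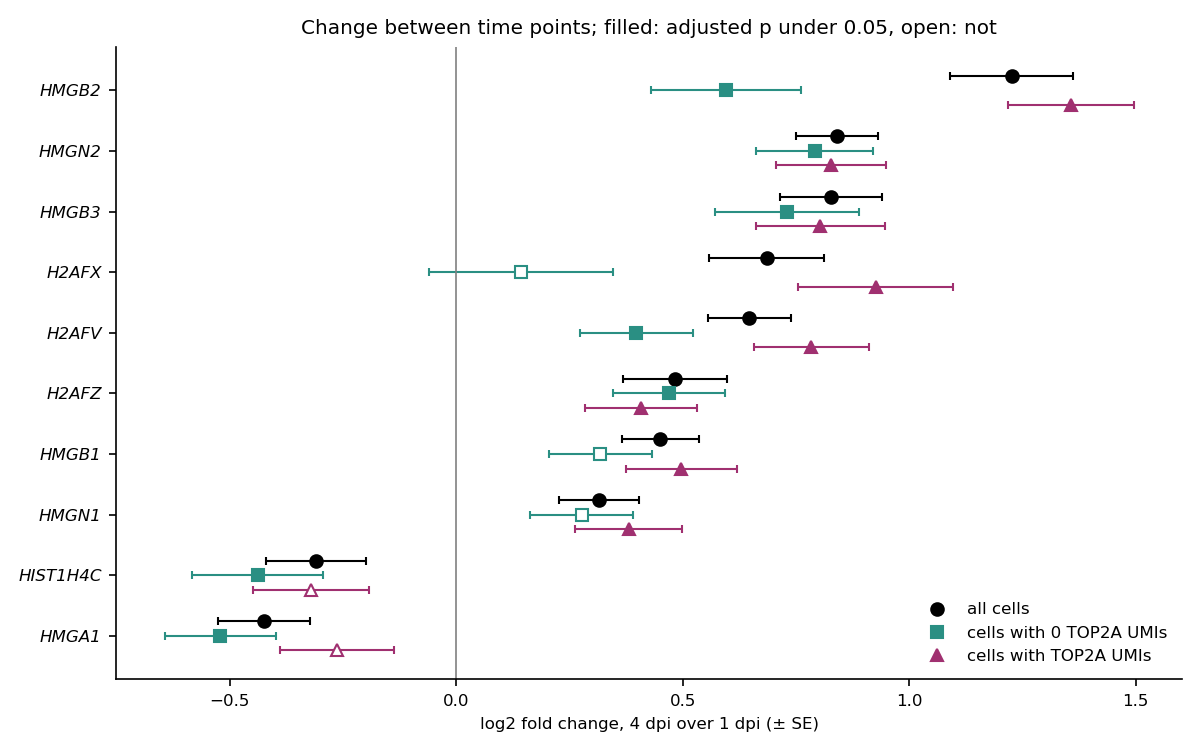
Log2 fold change from 1 dpi to 4 dpi (x axis, bars are SE of the edgeR fit) for the 10 genes in all cells (black circles), TOP2A-zero cells (green squares) and TOP2A cells (purple triangles), with filled marks for an adjusted p under 0.05. H2AFX is at 0.14 in TOP2A-zero cells and 0.93 in TOP2A cells, whereas HMGN2 stays between 0.79 and 0.84 in the 3 sets.

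The second comparison set TOP2A cells against TOP2A-zero cells of the same library, with the library as a block. It asks which of the genes go with a marker of cycling cells, and checks the marker first: all 12 G2 and mitosis genes and 9 of 9 S-phase genes were higher in TOP2A cells, with median log2 differences of 3.00 and 0.92. Of the 10 genes 8 were higher in TOP2A cells and passed the test, against 10.3% of 10875 genes tested, and these 8 were higher in 5 of 5 libraries. Over all genes, 19.8% kept 1 direction in the 5 libraries and the median log2 difference was -0.02. TOP2A cells also held more UMIs (a median of 35447 against 22566 per cell), and the values compared are relative to the UMIs of the class.

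HMGB2 had the largest difference of the 10. It was 65.6, 70.6, 51.6, 113.2 and 84.0 CPM in the TOP2A-zero cells of libraries 6, 7, 8, 10 and 11, and 132.8, 133.7, 105.0, 337.5 and 279.3 CPM in their TOP2A cells. Within a library the ratio was thus between 1.89 and 3.33, and the log2 difference was 1.25 ± 0.12 (adjusted p = 9.49e-09). HIST1H4C followed with 415.5, 446.7, 436.2, 262.8 and 405.8 CPM against 631.4, 895.3, 723.5, 587.9 and 567.1 CPM, a log2 difference of 0.78 ± 0.09 (adjusted p = 4.02e-07). It was one of 2 members, with H2AFX, whose 5 values in TOP2A cells all lay above the 5 in TOP2A-zero cells. Over all 10875 genes tested, 5.35% were without overlap between the classes, in either direction. HIST1H4C, which was lower at 4 dpi, was thus higher in TOP2A cells in each library.

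H2AFX differed by 0.77 ± 0.15 (adjusted p = 0.000564), with ratios of 1.48, 1.63 and 1.21 at 1 dpi and 1.88 and 2.76 at 4 dpi. H2AFZ differed by 0.70 ± 0.08 (adjusted p = 2.37e-07) and had the narrowest range of ratios among the 8, from 1.49 to 1.85. The remaining called members were HMGB3 at 0.68 ± 0.10 (adjusted p = 1.97e-05), HMGB1 at 0.51 ± 0.09 (adjusted p = 0.000361), HMGN2 at 0.49 ± 0.09 (adjusted p = 0.000237) and H2AFV at 0.49 ± 0.09 (adjusted p = 0.000754). HMGN1 and HMGA1 did not pass the test: HMGN1 had ratios from 0.961 to 1.20 and a log2 difference of 0.05 ± 0.08 (adjusted p = 0.768), and HMGA1 had ratios from 0.819 to 1.07 and a log2 difference of -0.03 ± 0.08 (adjusted p = 0.891). HMGN1 and HMGN2, both nucleosome-binding genes, thus gave different results in this comparison, although the difference between the 2 genes was not itself tested. Without the library as a block 3 of the 10 genes passed (HMGB2, H2AFZ and HIST1H4C), and with thinned cells 6 passed. The calls lost with thinned cells were those of HMGB3 (0.54, adjusted p = 0.259) and H2AFX (0.92, adjusted p = 0.0994). Over all genes, 385 of 10875 were called without the block and 219 of 5832 with thinned cells, in place of 1118 of 10875.

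**Figure D3:**
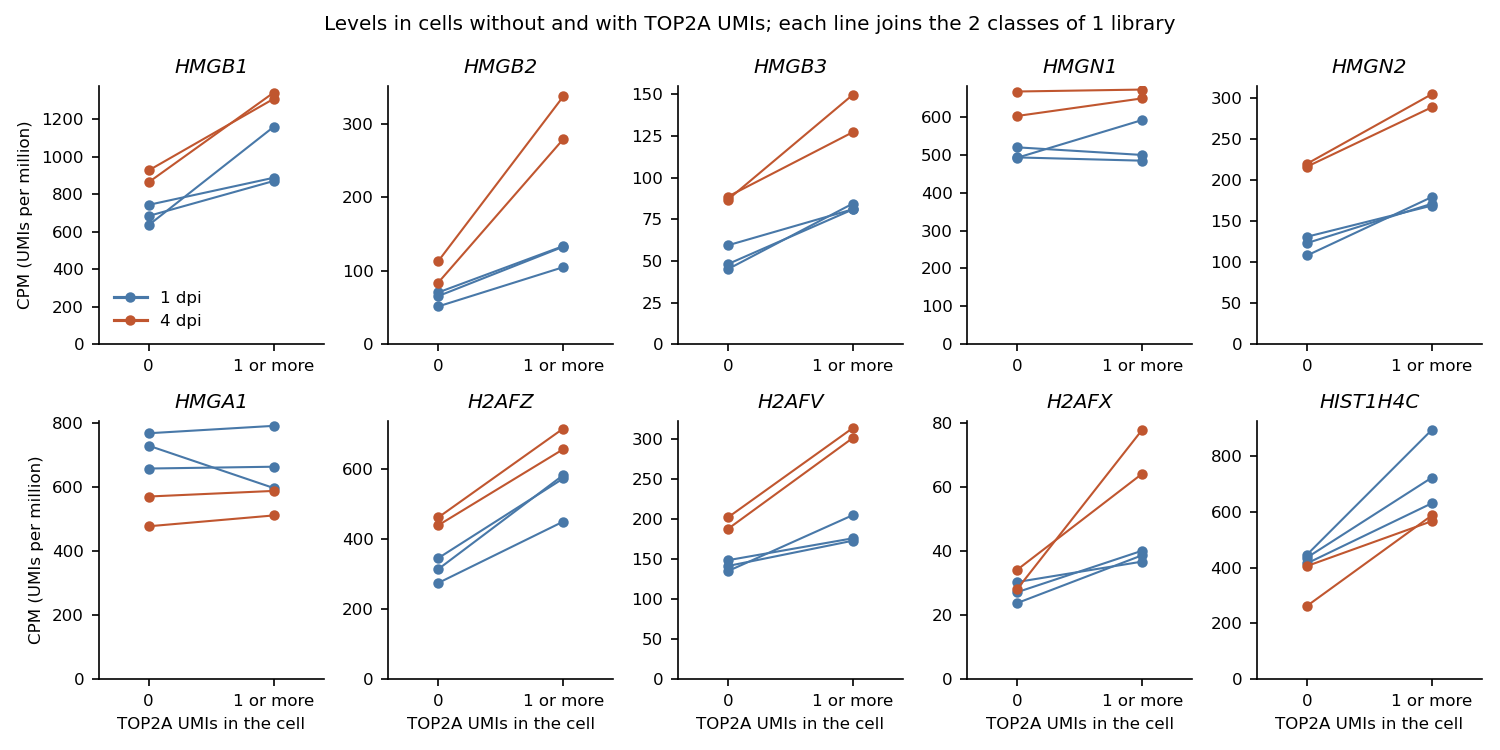
Level in CPM (y axis, from 0) in cells with 0 and with 1 or more TOP2A UMIs, 1 panel per gene; each line joins the 2 classes of 1 library, blue for 1 dpi and orange for 4 dpi. All 5 lines rise for 8 genes, while those of HMGN1 rise in 3 libraries and those of HMGA1 in 4.

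Related genes gave a context for the 8. Of 23 histone chaperones 11 were higher in TOP2A cells and 0 lower, led by HJURP, the chaperone of CENPA, which went from 3.26 ± 1.06 to 40.5 ± 8.17 CPM (SD, n = 5), and ASF1B, which went from 28.5 ± 6.83 to 111 ± 30.4 CPM. CENPA rose from 7.06 ± 1.598 to 33.6 ± 14.9 CPM and was the only 1 of 7 other replication-independent histone genes called. Of 11 other HMG genes 2 were higher, HMGN5 (39.3 ± 10.8 to 56.6 ± 12.4 CPM) and HMGXB4 (59.7 ± 14.6 to 82.5 ± 21.7 CPM). Of 12 H2A.Z exchange genes 3 were higher, led by ANP32E (41.1 ± 7.29 to 72.7 ± 17.3 CPM). Of 9 genes that phosphorylate H2AX or read that mark 4 were higher, among them BRCA1 (14.1 ± 4.86 to 52.0 ± 12.6 CPM) and CHEK1 (35.7 ± 8.92 to 61.7 ± 6.05 CPM). Of 6 genes of histone mRNA processing 3 were higher. Of the 21 histone genes grouped by symbol as replication-dependent only 5 passed the filter on low counts. Of these 0 were higher and 2 were lower in TOP2A cells, HIST1H2BD (18.6 ± 10.4 to 9.72 ± 5.64 CPM) and HIST1H2BK (127 ± 41.1 to 77.6 ± 37.7 CPM).

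A test of the interaction asked whether the difference between TOP2A and TOP2A-zero cells itself changed from 1 to 4 dpi. None of the 10 genes was called (0 of 10 with edgeR and 0 of 10 with DESeq2), against 0.179% of 11701 genes tested, of which 899 had an unadjusted p under 0.05. HMGB2 came closest: its ratios were 2.02, 1.89 and 2.04 at 1 dpi and 2.98 and 3.33 at 4 dpi, and the interaction was 0.80 ± 0.18 on the log2 scale (adjusted p = 0.0538). It passed with no filter on low counts (adjusted p = 0.0217) and with cells of over 1000 genes (adjusted p = 0.0498), and had adjusted p = 0.504 under 15% mitochondrial UMIs and 0.254 with DESeq2. H2AFX had an estimate of the same size with a larger error, 0.79 ± 0.26 (adjusted p = 0.384). The other 8 lay between -0.04 for H2AFZ and 0.41 for H2AFV.

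A cut at 1 UMI makes a range of cells rather than a type, since 118 of the 290 TOP2A cells held exactly 1 UMI. The cells were therefore also divided by their number of TOP2A UMIs, into 536 with 0, 118 with 1, 95 with 2 to 5, 55 with 6 to 15 and 22 with over 15. The mean of HMGB2 over libraries was 77.0 ± 23.3, 105 ± 41.5, 144 ± 72.7, 251 ± 174 and 541 ± 171 CPM in that order (SD, over 5 libraries, and over the 3 with at least 5 cells in the last bin). That of H2AFX was 28.7 ± 3.86, 33.2 ± 12.6, 38.1 ± 10.4, 66.5 ± 25.01 and 135 ± 21.8 CPM. The last bin holds libraries 6, 10 and 11 only, since libraries 7 and 8, both of 1 dpi, had 1 and 2 cells in it. It therefore mixes the time points in another proportion than the other bins, and the part of this in the levels was not tested. The means of H2AFZ were 366, 480, 577, 685 and 832 CPM, and those of HMGB1 were 771, 885, 1090, 1254 and 1760 CPM.

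HIST1H4C had its highest mean in another bin. Its means were 393 ± 74.8, 548 ± 135, 441 ± 201, 1056 ± 261 and 610 ± 186 CPM, highest at 6 to 15 TOP2A UMIs, but the lower mean of the last bin is of 3 libraries and those before it are of 5. HMGN1 went from 555 to 670 CPM over the 5 bins and HMGA1 from 641 to 579 CPM. The bins differ in depth as well, with medians from 22566 to 49492 UMIs per cell. These levels are a description without a test.

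**Figure D4:**
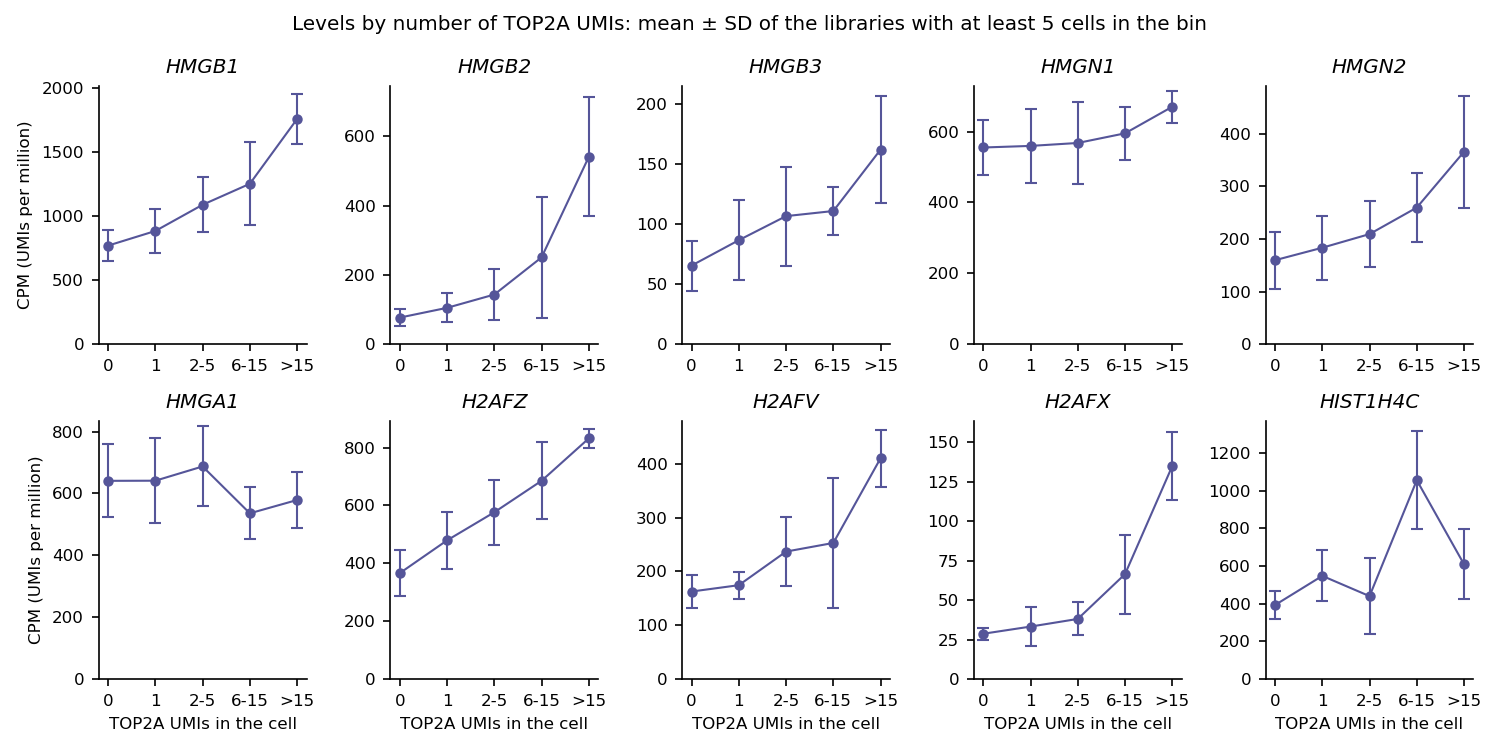
Level in CPM (y axis, from 0) by the number of TOP2A UMIs in the cell (x axis), as the mean and SD of the libraries with at least 5 cells in the bin (3 libraries for over 15, otherwise 5). The last bin has libraries 6, 10 and 11 only; HMGB2 and H2AFX have their highest means there and HIST1H4C has its highest mean at 6 to 15.

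The genes also differed in how their transcripts were spread over the cells, measured as variance over mean of the UMIs per cell after each of 815 cells was thinned to 5000 UMIs (random counting alone gives about 1). This measure was added after the values had been seen. Among 9 of the members it lay between 1.07 and 4.08 in every library. HIST1H4C had 3.39 to 5.13 in the libraries of 1 dpi and 14.8 to 14.9 in those of 4 dpi. The ratio of the means, 3.39, was exceeded by 1 of 705 genes with at least 1 UMI per thinned cell, whose median ratio was 1.08, and 30.9% of these genes had both 4 dpi libraries above the 3 of 1 dpi. H3F3B had a ratio of 2.02 and was exceeded by 22 genes.

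In these thinned cells the level of HIST1H4C was not called between time points (log2 change -0.10, adjusted p = 0.678). Its spread over cells is described here from 2 sides, without a test and from few cells per library. On one side it was found in fewer cells: thinned cells with a UMI were 64.1% at 1 dpi and 50.9% at 4 dpi, and the level of cells under 10 UMIs fell from 1.84, 1.91 and 2.06 UMIs in libraries 6, 7 and 8 to 1.28 and 1.25 in libraries 10 and 11. On the other side a few cells held much of it. Cells with at least 10 of their 5000 UMIs on HIST1H4C numbered 9, 14 and 3 at 1 dpi and 7 and 8 at 4 dpi, in the order of library number. Those cells carried 23.1%, 42.6% and 9.50% of the HIST1H4C UMIs at 1 dpi, and 48.9% and 49.3% at 4 dpi. The share of such cells overlapped between the times (1.88% to 10% at 1 dpi, 5.38% and 5.03% at 4 dpi), while the most UMIs in a cell went from 24 to 49. TOP2A UMIs were present in 5 of 9, 8 of 14 and 1 of 3 such cells at 1 dpi and in 5 of 7 and 4 of 8 at 4 dpi. The mean UMIs summed over the S-phase genes were 3.11, 2.50 and 1.33 in such cells at 1 dpi. The rest of the cells had 3.51, 3.34 and 2.96. At 4 dpi the means were 5.29 and 6.50 against 3.84 and 3.35. Whether such cells were in S phase was not tested. The HMG genes HMGB1, HMGN1 and HMGA1 and the variant H2AFZ were found in 76.6% to 95.8% of thinned cells at both times, HMGB2 in 30.4% and 45.7%, and H2AFX in 13.3% and 21.1%.

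**Figure D5:**
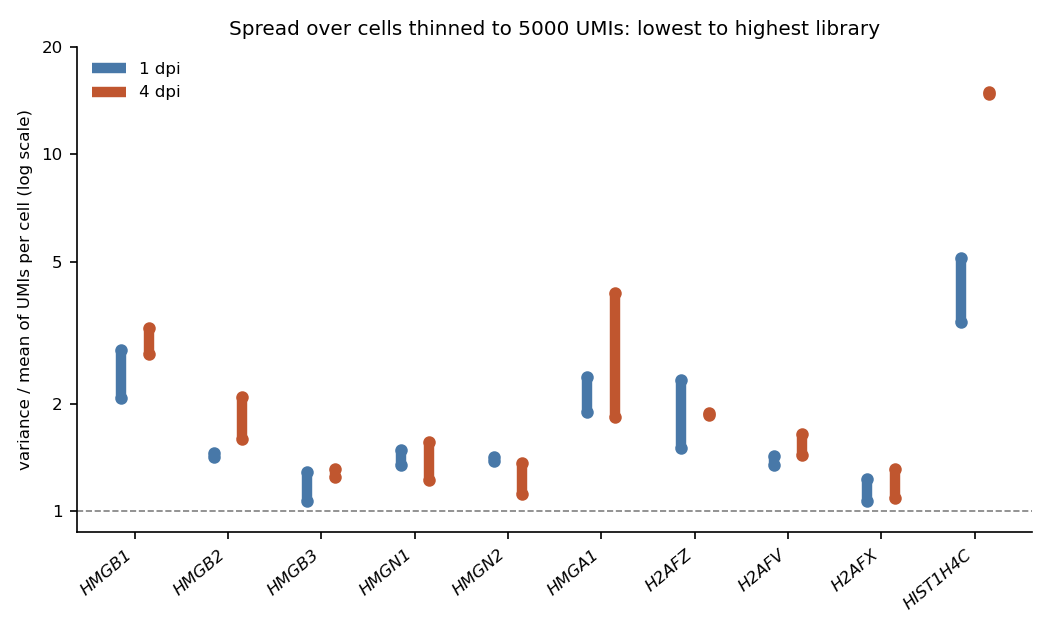
Variance over mean of UMIs per cell (log scale on the y axis; the dashed line at 1 is random counting) in cells thinned to 5000 UMIs, with dots and bars for the lowest and highest library of 1 dpi (blue, 3 libraries) and 4 dpi (orange, 2 libraries). HIST1H4C is at 3.39 to 5.13 at 1 dpi and 14.8 to 14.9 at 4 dpi, apart from the other 9 genes.

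Within libraries, the members were only weakly correlated from cell to cell, as sparse counts allow. The highest Spearman coefficient between 2 members was that of HMGB1 and H2AFZ, with a mean of 0.27 over the 5 libraries (0.23 to 0.34), followed by HMGB1 and HMGN2 at 0.26. Against the summed G2 and mitosis genes HMGB1 had 0.33, H2AFZ 0.32 and HMGB2 0.27, and against the summed S-phase genes H2AFZ had 0.26. HIST1H4C had 0.20 against the G2 and mitosis genes and 0.01 (-0.13 to 0.20) against the S-phase genes. HMGA1 and HIST1H4C were the pair furthest below 0, with a mean of -0.17 (-0.24 to -0.13). Among 8877 genes compared, members included, the 5 outside the members most like HMGB2 were ANLN, ASPM, RRM2, CENPF and NCAPD2, at means of 0.24 to 0.26. They are genes of cell division and, for RRM2, of nucleotide synthesis. Their coefficients in single libraries ran from 0.09 for ANLN to 0.53 for RRM2. All points share the library and its depth, and no test was made.

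Reads of some members may be shared with near copies. The annotation lists 47 pseudogenes of HMGB1, 38 of HMGN2, 32 of HMGN1, 29 of HMGB3, 7 of HMGA1 and 1 each of HMGB2 and H2AFV. Of these 1, of HMGB3, has a row of its own among the genes kept. The sources do not say how reads that match several places were counted, and the values of all these genes may include such reads.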

How the data were processed

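SW480 cells from zebrafish xenografts were measured by SORT-seq, with CEL-Seq2 chemistry, on 5 plates: 3 libraries of 1 dpi and 2 of 4 dpi. The authors aligned reads with BWA (version not stated) to hg38 and deposited raw UMI counts per gene and well, without normalization. Cells with over 2000 genes and under 25% mitochondrial UMIs and genes listed in all 5 tables and seen in at least 10 wells were kept, and 83 spike-in rows, which held 1.30% to 3.57% of the UMIs of a library, counted only in this filter. Wells were filled by sorting, and doublets were not looked for. Each library, or each library and TOP2A class, gave 1 sum of at least 10 cells.

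Sums were tested with edgeR 4.0.16 in R 4.3.3 (glmQLFit and glmQLFTest, two-sided, TMM, filterByExpr, Benjamini-Hochberg over all genes tested, threshold 0.05). The row of TOP2A was left out of counts over genes. Between classes and in the interaction the library was a block, because both classes come from the same plate. SE is the log2 change over the square root of F, SD is between libraries, and CPM is relative to 1000000 UMIs of human genes. Libraries of 3789632 to 7503665 UMIs limit precision most for H2AFX, with 565 UMIs at 1 dpi and 405 at 4 dpi. The fits were tested on simulated data.

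The 10 members were all named. From each list up to 2 called genes in either direction with the largest change could be named, and some of these were left out. The 5 genes most correlated with HMGB2 were also named. Members and lists were chosen with earlier results of these data known. Alternatives were DESeq2 1.42.0, no TMM, no low-count filter, genes of any table, 1000 or 3000 genes and 15% mitochondrial UMIs as limits, cells thinned to 5000 UMIs, the flow cell as a term, 2 TOP2A UMIs as the class, no library block, and each library left out. Positions are from the GENCODE annotation of hg38 and promoters from RefSeq on GRCh38.p14.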

Additional observations from a re-analysis of the deposited data

How the results depend on the processing

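Of the 140 alternative values of the 10 genes between time points over all cells, 124 kept direction and call and 16 lost the call, and between TOP2A classes 142 of 150 kept both. Over all cells 6 of 10 genes passed under 15% mitochondrial UMIs, and 7 to 10 when 1 library was left out. In TOP2A-zero cells 4 passed with DESeq2 in place of 7, and 2 to 6 with 1 library left out (2 without library 10, 3 without library 8). In TOP2A cells 5 passed in place of 8 under 15% mitochondrial UMIs, 1 with cells thinned to 5000 UMIs, where fewer genes and cells were tested, and 5 to 9 with 1 library left out (5 without library 11). Leaving out a library of 4 dpi leaves 1 in that arm, which is then assumed to vary like the others. Calls over all genes fell as well, also in every fit between time points that left out 1 library. The lower counts are therefore not read as particular to the members. Without library 8 they were 2939 of 12381 over all cells and 1494 of 11014 in TOP2A cells. Under 15% mitochondrial UMIs the calls over all genes were 2586 of 12384 over all cells and 1074 of 10199 in TOP2A cells, in place of 3483 of 12609 and 2074 of 11057. In TOP2A-zero cells they were 1000 of 11744 with DESeq2 and 1393 of 11239 without library 8, in place of 1909 of 11744. Between classes 8 of the 10 members passed whichever library was left out, and 3 with no library block, when 385 genes were called in place of 1118. In the interaction 1 gene, HMGB2, passed with no filter on low counts and with over 1000 genes per cell in place of 0, and 0 passed in any fit that left out 1 library. The difference in the share of TOP2A cells was 9.42 to 14.5 percentage points with 1 library left out. Signs changed only for values without a call: HIST1H4C between time points in TOP2A cells (0.21 with thinned cells), H2AFX in TOP2A-zero cells (-0.032 to 0.28 with 1 library left out), HMGA1 between classes (-0.073 to 0.059 with 1 library left out) and, in the interaction, HMGB1 (-0.14 thinned), HMGB3 (-0.050 without TMM, -0.13 under 15% mitochondrial UMIs, -0.20 thinned, -0.070 to 0.23 with 1 library left out), HMGN1 (-0.0062 without TMM, -0.058 thinned), HMGN2 (-0.088 without TMM, -0.054 under 15% mitochondrial UMIs, -0.0014 with 2 TOP2A UMIs, -0.040 to 0.19 with 1 library left out), H2AFZ (0.084 thinned, -0.085 to 0.048 with 1 library left out) and HIST1H4C (-0.15 to 0.50 with 1 library left out). The cause of these changes was not tested. Among all genes, thinning cut the calls between time points from 3483 to 1094 and between classes from 1118 to 219. The class of 2 or more TOP2A UMIs leaves TOP2A-zero cells as they are, so it gave no further value there. No paired analysis was possible between time points because the libraries of 1 and 4 dpi share no number. Depth limits H2AFX, with 114 UMIs in TOP2A-zero cells at 4 dpi.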
